A study of Mus musculus with 10 samples.

Results

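Inflammatory cytokines and enzymes of the macrophage were examined as 10 genes chosen by name, out of 21883 protein-coding genes. They are Il1b, Il18, Tnf, Il6, Il12a and Il12b, which encode secreted cytokines, Nlrp3, which encodes an inflammasome sensor, and Nos2, Ptgs2 and Acod1, which encode enzymes. For each gene, every deposited peak over the annotated extent and 5 kb on either side was taken from 6 CUT&Tag libraries, 1 per group. In CUT&Tag a transposase tethered to an antibody tags the DNA around its target. Nucleophosmin (NPM1), a histone chaperone best known from the nucleolus, was mapped in 4 of them. These were cardiac macrophages of wild-type (WT) mice, taken on day 3 after a sham operation or on day 3 after myocardial infarction, and cultured cells. The cultured cells were WT bone marrow-derived macrophages (BMDM), left untreated or kept for 12 hours with the cytokine interleukin-4 (IL-4) at 20 ng/ml. The BMDM had first been cultured for 7 days with 50 ng/ml M-CSF. The other 2 mapped H3K4me3, the trimethylated lysine of histone H3 that is typical of active promoters, in cardiac macrophages of WT and of conditional Npm1-knockout mice on day 3 after infarction. The sources used here do not give the driver of the deletion, the number of hearts or cultures per library or the purity of the cells.

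These genes are among the best known products of macrophages that meet microbial molecules or dying cells. Toll-like receptor and NF-kappaB signalling switches most of them on within hours, and IL-4 is known for driving macrophages towards a different, reparative state. IL-1beta and IL-18 are made as inactive precursors that caspase-1 cuts once the NLRP3 inflammasome has assembled. The products of Il12a and Il12b pair to form interleukin-12. Nos2 makes nitric oxide from arginine, Ptgs2 is the inducible cyclooxygenase that starts prostaglandin synthesis, and Acod1 makes itaconate from an intermediate of the tricarboxylic acid cycle.

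After infarction, NPM1 peaks were called at 7 of the 10 genes, namely Il1b, Il18, Tnf, Nlrp3, Nos2, Ptgs2 and Acod1. With IL-4 in culture they were called at 6, the same genes without Ptgs2. Il6, Il12a and Il12b had no NPM1 peak in either library. In the sham library 3 genes had a peak, Il12b, Nos2 and Nlrp3, and in untreated BMDM none of the 10 had one. H3K4me3 peaks were called at 8 genes in WT and at 10 in knockout macrophages, with Il6 and Il12b marked in the knockout library alone. Each group had 1 library, so none of the differences described could be checked against replicates or tested.

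The shares of all protein-coding genes with a peak in the same kind of window were 52.4% in the sham and 74.9% in the infarct library, 36.2% in untreated and 78.3% in IL-4-treated BMDM, and 77.1% (WT) and 72.2% (knockout) for H3K4me3. The 7 and 6 genes with an infarct and an IL-4 peak were thus 70.0% and 60.0%, no more than among all genes, and the 3 and 0 genes in sham and untreated cells were 30.0% and 0%. The median extent of the 10 genes was 8883 bp against 17170 bp for all genes, though Nos2, Il18 and Nlrp3 are longer than that, and the part of window length in these counts was not tested. Within 1 kb of a listed start site, a window that does not grow with the gene, 9 of the 10 genes could be placed, all but Nos2. There NPM1 peaks were found at 4 of the 9 after infarction, against 49.6% of all genes, at 5 with IL-4, against 49.5%, and at none in sham or untreated cells, against 6.07% and 5.16%. H3K4me3 was found there at 6 in WT, against 57.9%, and at 9 in the knockout, against 62.8%. At Il1b and Il12b the knockout peaks reached into this window, with summits outside it, 1028 and 1057 bases from the start.

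**Figure D1:**
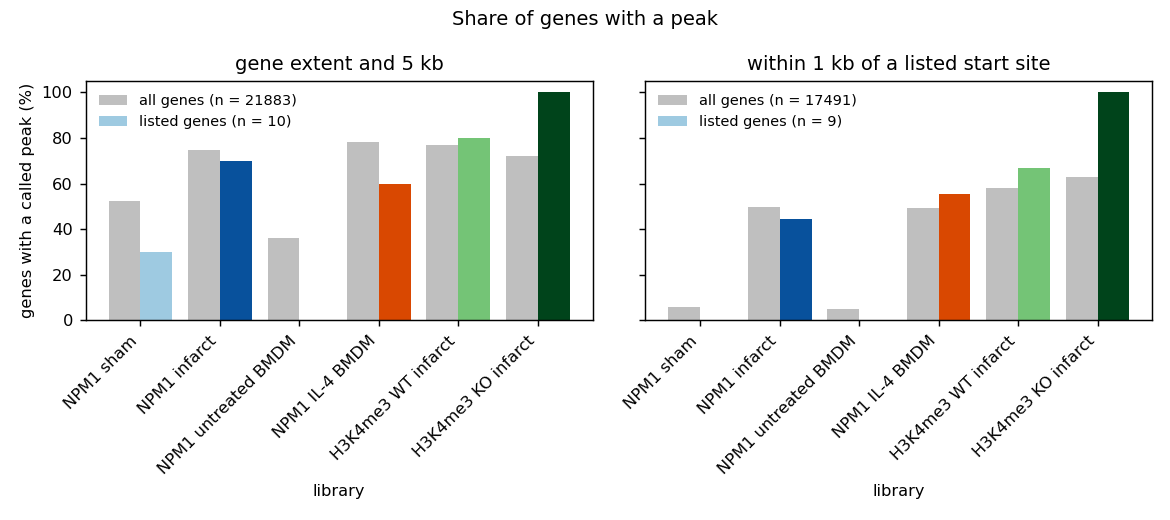
Percentage of genes with a called peak in each of the 6 libraries, over the gene extent and 5 kb on either side (left) and within 1 kb of a listed start site (right); grey bars are all protein-coding genes and coloured bars the cytokine and enzyme genes. The coloured bars lie near the grey ones for NPM1 after infarction (70.0% against 74.9%, left) and reach 100% in the knockout H3K4me3 library, with no bar in untreated cells.

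Depth differed between the libraries and bears on every such count. The genome-wide background pileup, read from the peak values, was 1.29 reads in sham, 3.03 in infarct, 1.31 in untreated, 4.18 in IL-4, 2.92 in WT H3K4me3 and 2.49 in knockout H3K4me3. At those backgrounds a summit needed 5 reads in the sham and untreated libraries, 8 in infarct and in WT H3K4me3, 10 with IL-4 and 7 in knockout H3K4me3 to reach the smallest deposited −log10 p. Fold enrichment, −log10 q (the p-value adjusted within a list) and rank are the authors' values or follow from them, and they order peaks within 1 list only. With the pileups scaled down to the background of the shallower partner, 6 of 10 genes still had an infarct peak that reached that limit, Ptgs2 being lost, and 6 of 10 an IL-4 peak. The q scale also differed between the H3K4me3 lists. Of 52977 knockout peaks 29055 had −log10 q of 5 or more, against 16876 of 73321 in WT.

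The cells were checked by their markers. Infarct NPM1 over the extent and 5 kb was called at 12 of 12 macrophage, 6 of 6 endothelial and 8 of 9 cardiomyocyte genes. So it was at 7 of 7 T or NK, 5 of 5 B, 5 of 9 neutrophil and 4 of 7 fibroblast markers. The share of all genes was 74.9%. That window thus did not set macrophage genes apart from several other cell types, and 6 of 12 macrophage genes had a sham peak there. Of 8 macrophage genes with a listed start, 8 had an NPM1 peak within 1 kb of it after infarction, 7 with IL-4 and 0 in sham and untreated cells, and 5 had H3K4me3 in WT and 8 in the knockout. Of 9 neutrophil genes 3 had an infarct NPM1 peak, 3 had WT and 3 knockout H3K4me3 there. The cardiomyocyte markers numbered 1, 2 and 0 of 9, the fibroblast markers 1, 0 and 4 of 5, the endothelial ones 0, 1 and 1 of 3, those of T and NK cells 2, 2 and 1 of 6 and those of B cells 1, 0 and 0 of 2. The fibroblast and macrophage genes thus both gained called H3K4me3 peaks in the knockout library, as the cytokine genes did. Among all genes the H3K4me3 share within 1 kb was 57.9% in WT and 62.8% in the knockout, and that of infarct NPM1 was 49.6%. Over the extent and 5 kb, at −log10 q of 5 or more, WT and knockout counts were 3 and 5 for fibroblast and 1 and 3 for neutrophil genes. They were 2 and 4 for endothelial, 1 and 3 for T and NK cell, 9 and 10 for macrophage, 1 and 1 for cardiomyocyte and 2 and 2 for B cell genes. The part of fibroblasts in those results was not tested.

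**Figure D2:**
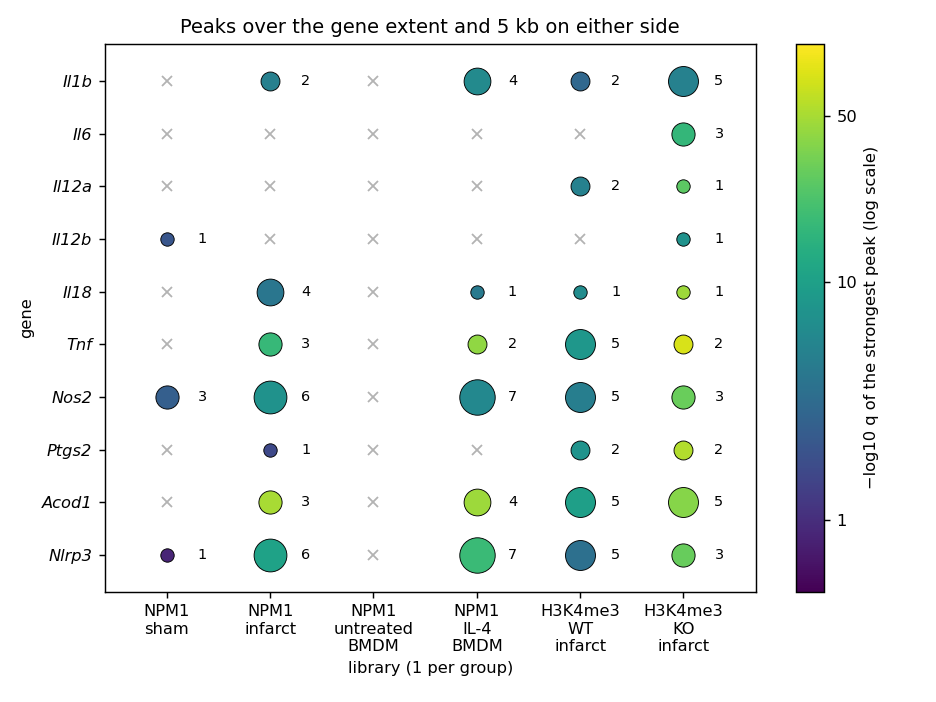
Number of peaks at each of the 10 genes in each library (number and circle area) with the −log10 q of the strongest one (colour, log scale); a cross means that no peak was called. Acod1 and Tnf had the strongest NPM1 peaks, the untreated column is empty, and every gene has a circle in the knockout H3K4me3 column.

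The promoters on which the peaks bear are shown as the 250 bases before the start site, from RefSeq (GRCm38.p6, the assembly that mm10 names), for Tnf, Nlrp3 and Acod1, where an NPM1 peak lay over the start, and for Il1b and Il6, where none did. Il12a is added because its H3K4me3 sat at the second of its 2 start sites. Capitals mark matches, on either strand, to the TATA box TATAAA, the kappaB consensus, the AP-1 element TGANTCA, the cyclic AMP element TGACGTCA, a C/EBP-like element TTNNGNAA, an IRF-like element GAAANNGAA and a PU.1-like element GAGGAA. Sequences run 5′ to 3′ in the direction of transcription and end at the base before the start.
Tnf (chr17:35202008-35202257, minus strand): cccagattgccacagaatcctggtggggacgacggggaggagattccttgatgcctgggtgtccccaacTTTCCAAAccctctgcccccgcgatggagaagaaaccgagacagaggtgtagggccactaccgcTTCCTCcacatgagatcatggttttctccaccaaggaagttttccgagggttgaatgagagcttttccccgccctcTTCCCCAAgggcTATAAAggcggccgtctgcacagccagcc
Nlrp3, first start (chr11:59541319-59541568, plus strand): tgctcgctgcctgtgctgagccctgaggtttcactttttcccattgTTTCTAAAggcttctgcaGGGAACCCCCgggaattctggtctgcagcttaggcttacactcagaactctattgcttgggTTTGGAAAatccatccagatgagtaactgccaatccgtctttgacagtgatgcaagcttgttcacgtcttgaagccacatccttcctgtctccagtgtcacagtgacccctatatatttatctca
Nlrp3, second start (chr11:59542436-59542685, plus strand): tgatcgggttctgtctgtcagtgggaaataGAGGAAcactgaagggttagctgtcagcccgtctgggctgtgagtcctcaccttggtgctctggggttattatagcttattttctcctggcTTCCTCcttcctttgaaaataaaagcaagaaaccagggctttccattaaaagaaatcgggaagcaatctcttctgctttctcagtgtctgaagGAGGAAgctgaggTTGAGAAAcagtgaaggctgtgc
Acod1 (chr14:103046762-103047011, plus strand): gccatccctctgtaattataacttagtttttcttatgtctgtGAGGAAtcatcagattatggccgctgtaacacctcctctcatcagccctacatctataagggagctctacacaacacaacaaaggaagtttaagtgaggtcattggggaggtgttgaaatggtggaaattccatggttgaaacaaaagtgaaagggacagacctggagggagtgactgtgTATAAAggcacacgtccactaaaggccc
Il1b (chr2:129371140-129371389, minus strand): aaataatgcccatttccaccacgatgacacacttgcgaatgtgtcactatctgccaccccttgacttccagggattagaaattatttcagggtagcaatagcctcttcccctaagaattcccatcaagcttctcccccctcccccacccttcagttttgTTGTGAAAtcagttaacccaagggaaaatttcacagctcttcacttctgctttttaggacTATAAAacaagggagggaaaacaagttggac
Il6 (chr5:30012864-30013113, plus strand): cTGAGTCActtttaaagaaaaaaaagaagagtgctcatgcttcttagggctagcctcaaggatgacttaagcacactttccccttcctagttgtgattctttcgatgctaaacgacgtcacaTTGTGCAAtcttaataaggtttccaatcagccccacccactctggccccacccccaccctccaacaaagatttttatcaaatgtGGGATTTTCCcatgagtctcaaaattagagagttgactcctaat
Il12a, second start (chr3:68691174-68691423, plus strand): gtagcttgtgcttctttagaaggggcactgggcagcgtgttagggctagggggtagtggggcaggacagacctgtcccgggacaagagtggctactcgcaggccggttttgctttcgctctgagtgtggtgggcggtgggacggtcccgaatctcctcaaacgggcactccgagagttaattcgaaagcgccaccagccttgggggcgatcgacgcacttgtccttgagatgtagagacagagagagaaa

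A TATA box lay 31 to 26 bases before the start of Il1b, 29 to 24 before that of Tnf and 28 to 23 before that of Acod1. In Il18 the same letters stood on the other strand, 175 to 170 bases before the start. Of all 32851 promoters in the table, 12.4% held them. The kappaB consensus was found in Il6, 44 to 35 bases before the start, and before the first Nlrp3 start, 186 to 177 bases away, and in 3.90% of all promoters. AP-1 letters were found in Il6 alone, 249 to 243 bases before the start (6.75% of all promoters). C/EBP-like letters were present in Il1b, Il6, Tnf, Ptgs2 and at both Nlrp3 starts (36.8% of all), and PU.1-like letters in Tnf, Ptgs2, Acod1, Il12b and at the second Nlrp3 start (23.3%). The cyclic AMP and IRF-like elements were found in none of the 11 promoters of the 9 genes, against 1.55% and 7.13% of all. A match describes letters in this window and no match says nothing about a factor.

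The promoters differed in CpG content. The second Il12a start held 15 CpG dinucleotides, Ptgs2 13 and Tnf 10, while the others held 1 to 4, with a median of 6 over all promoters. Tnf and Ptgs2, both with more CpG than the median, carried H3K4me3 within 1 kb of the start in WT and knockout macrophages. So did Il12a, at its CpG-rich second start, and so did Il18, with 1 CpG, Acod1, with 2, and Nlrp3, with 4 and 3 at its starts. Il1b, with 2, and Il6 and Il12b, with 3 each, carried it there in the knockout library alone. At Il1b and Il12b the summit lay outside that window.

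Tnf encodes tumour necrosis factor, an early alarm cytokine. It lies on chromosome 17 from 35199367 to 35202007 on the minus strand, between the related genes Lta and Ltb, whose extents reach into the window. The infarct library had 3 NPM1 peaks there. The strongest, 1271 bp from 35201052 to 35202322, ran over the start, with its summit 129 bases before it, inside the sequence shown above. Its summit held 60 reads, at a fold of 4.30 and with −log10 q of 17.3, and it ranked 2802 of 79893, in the top 3.51% of the list. The IL-4 library had 1 peak of 2216 bp over the start, from 35200400 to 35202615, with its summit 135 bases before it, 108 reads, 5.60-fold enrichment and −log10 q of 41.9. It ranked 949 of 104514, in the top 0.908%. The summits of the 2 lists were thus at nearly the same base of the promoter. The sham and untreated libraries had no peak in the window. A further peak lay in Ltb, 3290 bp beyond the far end of Tnf after infarction and 3372 bp beyond it with IL-4, with −log10 q of 5.27 and 7.91.

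The Tnf folds are set against a raised local background, 13.2 reads at the infarct summit and 18.5 at the IL-4 summit, where the whole libraries had 3.03 and 4.18. H3K4me3 at Tnf was called in 5 pieces in WT, 4 of them in or just before the gene. The strongest of these was 665 bp with −log10 q of 8.28 and its summit 1437 bases into the gene. In the knockout library a single peak of 2455 bp covered the start and most of the gene, with −log10 q of 71.9 and a summit of 210 reads over a local background of 42.5. The WT summit had 41 reads over 11.5. The 2 folds, 3.35 and 4.85, lie closer together than the pileups do.

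Nlrp3 encodes the sensor that assembles the inflammasome in response to cell damage. It spans 59541569 to 59566955 on chromosome 11 and has 2 listed starts, the second at 59542686. Each start had an NPM1 peak of its own in both activated libraries. After infarction a 615 bp peak covered the first start (31 reads at the summit, −log10 q of 6.71) and a 515 bp peak the second (38 reads, −log10 q of 10.5). Their summits lay 141 and 95 bases before the respective start. With IL-4 the peaks were 677 and 636 bp wide, with 36 and 51 reads and −log10 q of 8.70 and 18.3, and their summits lay 51 bases before the first and 69 bases after the second start. In both lists the peak at the second start was the stronger and the strongest of the gene, in the top 7.12% after infarction and 4.08% with IL-4.

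NPM1 was also called about midway in Nlrp3. The strongest peak there had its summit 12891 bases from the first end after infarction and 12900 with IL-4, with −log10 q of 4.29 and 8.88. H3K4me3 was called at the same place, with summits 12847 bases from the first end in WT and 12980 in the knockout. Around the starts H3K4me3 was weak in WT, in 3 peaks of 258 to 383 bp with −log10 q from 0.587 to 3.35. In the knockout library it was 1 peak of 3338 bp from 59540989 to 59544326, with −log10 q of 29.1, the widest member peak of any list. The sham library had a single peak in Nlrp3, 24598 bases from the first end, with 6 reads and −log10 q of 0.863, which stood 83.5% of the way down its list. It overlapped no other peak.

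Il1b, the interleukin-1beta gene on chromosome 2 (129364569 to 129371164, minus strand), showed a different arrangement, with NPM1 to either side of the gene and no peak over the start. After infarction a peak of 805 bp lay upstream, its summit 2451 bases before the start, with 18 reads and −log10 q of 4.89. A second of 541 bp lay beyond the far end, 3650 bp away, with 12 reads and −log10 q of 2.14. The IL-4 library had peaks at the same 2 places. The upstream one had its summit 2261 bases before the start and −log10 q of 5.76, and the downstream signal was split in 2 pieces, with −log10 q of 6.25 and 4.94. A weaker IL-4 peak, 226 bp with −log10 q of 3.31, had its summit 699 bases before the start. The upstream places lie within the annotated long non-coding RNA Il1bos. The knockout H3K4me3 list had small peaks at both flanking places, with −log10 q of 1.99 upstream and 5.01 as the stronger downstream one, and the WT list had none there.

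H3K4me3 did not cover the Il1b start in either genotype. WT macrophages had 2 small peaks inside the gene, of 209 and 200 bp, with −log10 q of 2.92 and 2.43. The nearest knockout peak, 200 bp with −log10 q of 2.68, had its summit 1028 bases into the gene.

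Il18 encodes a cytokine that, like interleukin-1beta, is released after cutting by caspase-1. Its start, at 50554700 on chromosome 9, lies within 1 kb of a start of Bco2, which runs the opposite way and overlaps it, so the peaks there cannot be given to 1 of the 2 genes. An NPM1 peak lay just inside Il18 in both activated libraries, 260 bp from 50554784 after infarction and 223 bp from 50554786 with IL-4, with 12 and 18 reads and −log10 q of 2.14 and 4.32. The first bases of the 2 peaks differ by only a few bases. H3K4me3 covered the start in both genotypes. It was 386 bp wide in WT, with 18 reads and −log10 q of 6.44, and 1132 bp in the knockout, with 66 reads and −log10 q of 46.1. By rank these peaks stood in the top 18.0% and 20.6% of their lists. The 3 other infarct peaks at Il18, inside the gene or beyond its far end, had −log10 q of 0.772 to 3.98 and no counterpart in another list.

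Nos2, the inducible nitric oxide synthase gene, is the longest of the 10, from 78920787 to 78960226 on chromosome 11, and had, like Nlrp3, 6 NPM1 peaks after infarction and 7 with IL-4, more than any other of the genes. Its start is not among those listed, and the H3K4me3 of both genotypes marked its first end. An NPM1 peak covered that end in both activated libraries, starting at 78920608 in each. It was 375 bp wide after infarction, with 20 reads and −log10 q of 5.30, and 236 bp with IL-4, with 18 reads and −log10 q of 2.55. The IL-4 peak was not kept when pileups were scaled to the untreated background. The strongest NPM1 peak of the window in both lists lay past the far end, 1845 bp beyond it after infarction and 1837 bp with IL-4, with −log10 q of 7.26 and 5.96. Neither of these peaks overlapped another annotated gene. The protein-coding gene Lgals9 also reaches into the Nos2 window, so peaks outside the Nos2 extent cannot be given to Nos2 alone.

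That place past the far end of Nos2 was the only 1 of 50 merged places over the 10 genes that was called in 5 of the 6 lists. The sham library had a 416 bp peak there with 7 reads and −log10 q of 0.951, a value above a q of 0.05, the WT H3K4me3 library one of 591 bp with −log10 q of 2.65 and the knockout library one of 276 bp with −log10 q of 6.38. The other 2 sham peaks at Nos2 and the sham peaks of Nlrp3 and Il12b overlapped no peak of another list. At the first end, H3K4me3 was 391 bp wide in WT, with 21 reads and −log10 q of 4.73, and 627 bp in the knockout, with 59 reads and −log10 q of 29.6.

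Acod1, the itaconate synthase gene on chromosome 14 (103047012 to 103056573), had the highest-ranking NPM1 peaks of the 10 genes, and they were not at its start. After infarction a peak of 1125 bp lay 2258 bp beyond the far end, from 103058831 to 103059955, with 74 reads, 11.1-fold enrichment and −log10 q of 50.4, rank 414 of 79893 (top 0.518%). With IL-4 a peak of 1248 bp overlapped it, from 103058679 to 103059926, with 74 reads, 9.69-fold enrichment and −log10 q of 45.9, rank 822 of 104514 (top 0.786%). The annotated extent of the long non-coding RNA Gm41236 meets the outer edge of this place. Within the gene 2 further places were called in both lists. Their peaks began at 103048742 and at 103051397 in each list, with −log10 q of 2.90 and 7.97 after infarction and 4.37 and 16.6 with IL-4. The former lies next to an end of the long non-coding RNA Gm41235, which overlaps the first part of Acod1.

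Over the Acod1 start, NPM1 was called with IL-4 alone, as a 263 bp peak with 20 reads and −log10 q of 3.12, its summit 152 bases before the start. H3K4me3 covered the start in both genotypes, 968 bp in WT (29 reads, −log10 q of 9.72) and 1336 bp in the knockout (86 reads, −log10 q of 38.5). It was also called at the 3 other NPM1 places of the gene in both genotypes. At the place past the far end the WT list had 2 pieces with −log10 q of 4.80 and 1.31, and the knockout list 1 peak of 1287 bp, 9.28-fold enriched, with −log10 q of 33.9.

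Ptgs2, which encodes the inducible cyclooxygenase (chromosome 1, 150100031 to 150108234), had 1 NPM1 peak in all, in the infarct library. It was 231 bp wide with 11 reads and −log10 q of 1.61, and its summit lay 178 bases after the start. It stood among the weaker peaks of its list, 58.3% from the top. H3K4me3 at its start was among the strongest of the 10 genes, with 879 bp, 20 reads and −log10 q of 7.57 in WT and 997 bp, 88 reads and −log10 q of 54.3 in the knockout. A start of the long non-coding RNA Ptgs2os lies within 1 kb, so these peaks may belong to either gene. The start thus carried the mark in both genotypes beside a weak NPM1 peak or none.

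**Figure D3:**
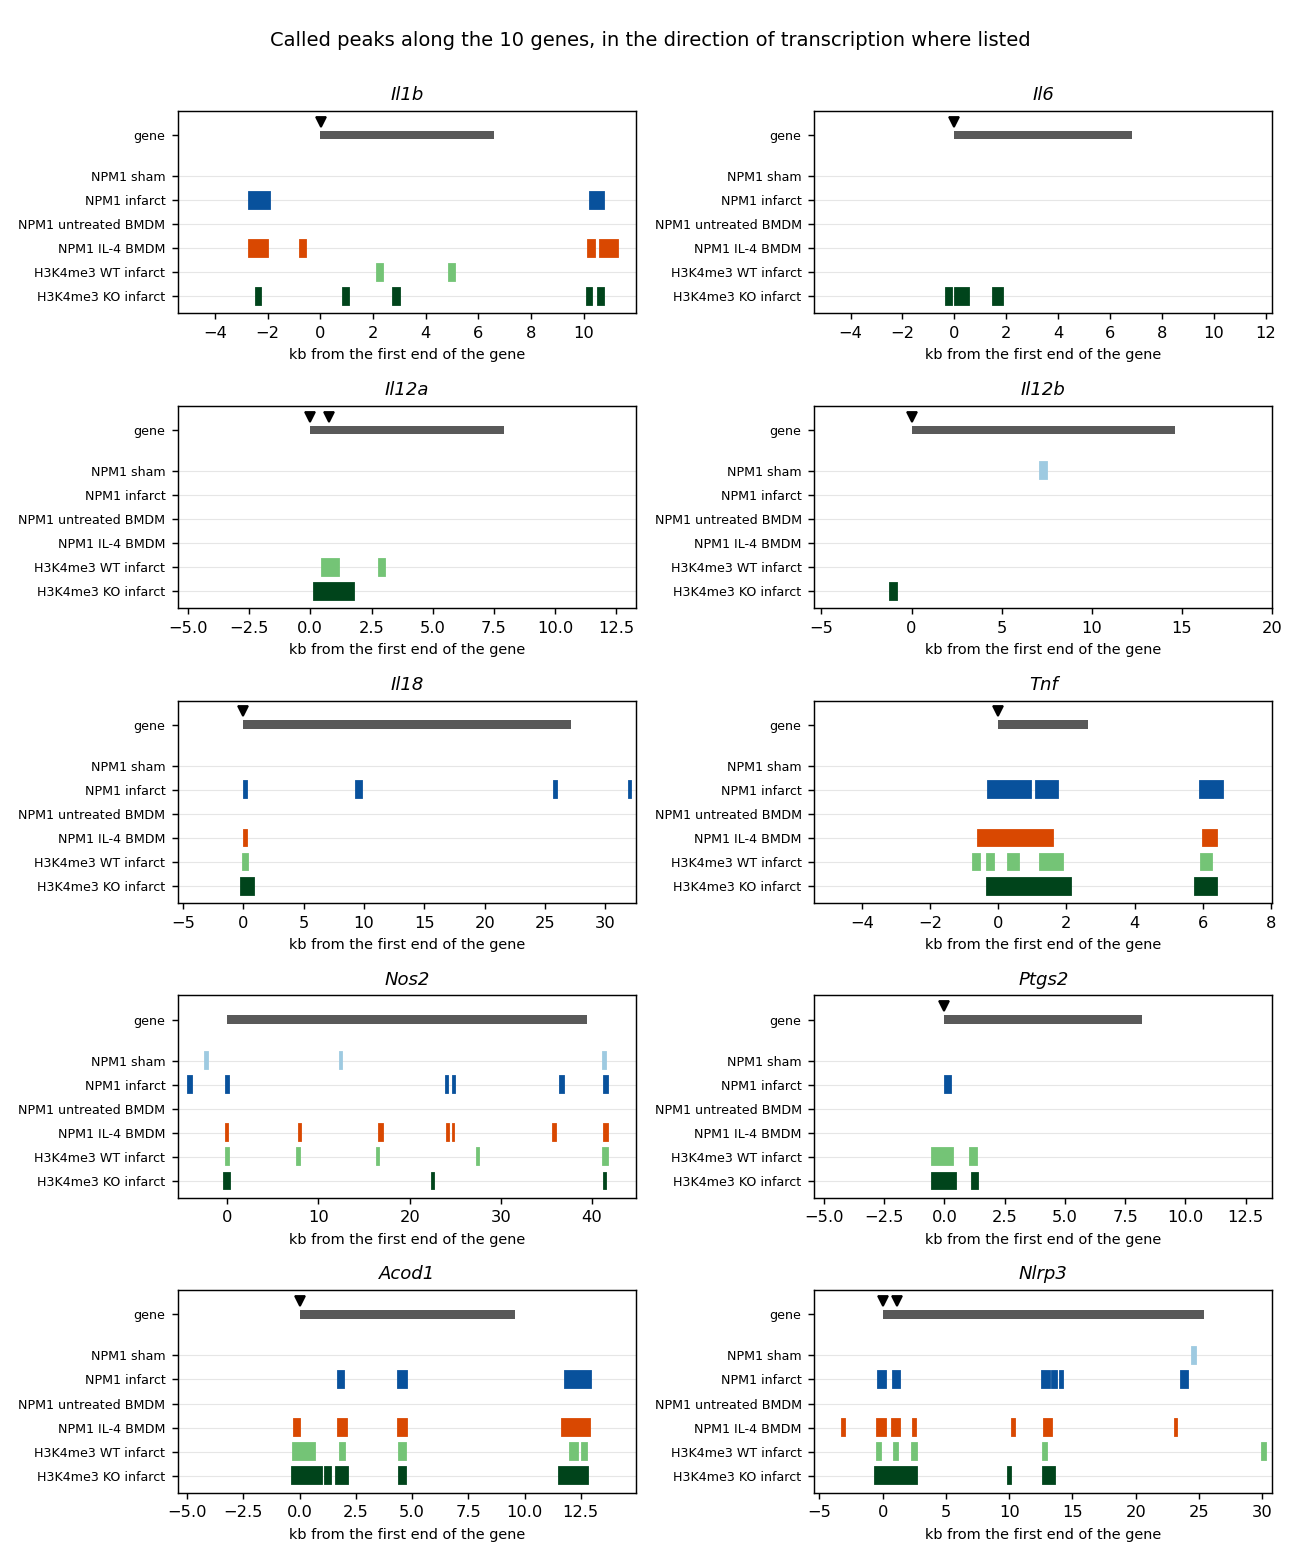
Called peaks of the 6 libraries along each gene, in kb from its first end in the direction of transcription (for Nos2, from its first annotated end); the grey bar is the gene extent, triangles are listed start sites, and each panel has its own scale. Blue infarct and orange IL-4 peaks stack at the Tnf and Nlrp3 starts, at the first annotated end of Nos2 and past the far ends of Acod1 and Nos2, and no NPM1 peak is seen over the Il1b start.

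The genes of the interleukin-6 and interleukin-12 cytokines had no NPM1 peak in the infarct, IL-4 or untreated lists. Il6 (chromosome 5, 30013114 to 30019975) had no WT H3K4me3 peak either. In the knockout library it had 3, the strongest of 533 bp just after the start, with 27 reads, 7.78-fold enrichment and −log10 q of 16.6. The annotated long non-coding RNA A230098N10Rik runs across the whole gene. Il12b (chromosome 11, 44400063 to 44414677) had 1 knockout H3K4me3 peak, 389 bp with 17 reads and −log10 q of 7.46, its summit 1057 bases before the start. Its only NPM1 peak was the sham one, 368 bp inside the gene with 8 reads and −log10 q of 2.06.

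Il12a (chromosome 3, 68690644 to 68698550) was marked by H3K4me3 in both genotypes at its second listed start, 68691424, the CpG-rich one shown above. The WT peak was 693 bp wide, with 17 reads and −log10 q just under 5, its summit 162 bases before that start. The knockout peak was 1606 bp, with 54 reads and −log10 q of 26.4, its summit 87 bases after it, and it began 168 bases past the first start. Il12a was thus a gene with H3K4me3 in both genotypes and no NPM1 peak in any list.

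Infarct NPM1 and sham NPM1 were compared to ask where NPM1 sits after injury. A peak in the infarct library and none in sham was found at 5 of the 10 genes, Il1b, Il18, Tnf, Ptgs2 and Acod1, against 28.5% of all genes. A peak in sham alone was found at 1, Il12b, against 6.0%. With −log10 q of 5 or more, 4 genes had an infarct peak, Tnf, Nlrp3, Nos2 and Acod1, against 41.4% of all genes, and none a sham peak, against 10.5%. The 4 genes are close to the share of all genes, and sham had the lower background, by a factor of 2.35.

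IL-4-treated and untreated BMDM were compared to ask the same of a reparative stimulus in culture. An IL-4 peak and no untreated peak was found at 6 of the 10 genes, or 60.0%, against 45.5% of all genes, and the reverse at none, against 3.36%. At −log10 q of 5 or more there were 5 genes with IL-4, the 4 named above and Il1b, against 48.2%, and 0 in untreated cells, against 7.44%. Untreated cells had the lower background, by a factor of 3.19. The part of depth in the empty untreated windows was not tested beyond the scaling given above.

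The infarct and IL-4 lists placed NPM1 at many of the same positions. Of the 25 infarct peaks at the 10 genes 16 overlapped an IL-4 peak by at least 1 bp, and 16 of the 25 IL-4 peaks overlapped an infarct peak, or 64.0% of each. Over the windows of all genes these shares were 51.7% and 45.6%. Among peaks with −log10 q of 5 or more, all 9 infarct peaks overlapped an IL-4 peak and all 10 IL-4 peaks an infarct peak, where 97.0% and 87.8% did over all genes. The sharing of strong peaks between these libraries was thus about as common over all genes.

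NPM1 was compared with H3K4me3 in WT macrophages after infarction to ask whether it sits at marked chromatin. Both were called at 7 of the 10 windows, against 70.0% of all genes. At Il1b, unlike the others of these, neither infarct NPM1 peak overlapped a WT H3K4me3 peak. Of the 25 infarct NPM1 peaks 13 overlapped a WT H3K4me3 peak, against 42.6% over all gene windows, and all 9 with −log10 q of 5 or more did, against 87.3%. Of the IL-4 NPM1 peaks 15 of 25 overlapped one, against 38.8%, and 8 of 10 at the higher threshold, against 77.4%. The 2 that did not were the flanking peaks of Il1b. Over the 10 genes the peaks of all lists merged into 50 places, of which 14 held both infarct and IL-4 NPM1. Of these 14, 12 also held H3K4me3 in at least 1 genotype and 10 in both.

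H3K4me3 in knockout and WT macrophages was compared to ask what becomes of the mark without NPM1. A peak in the knockout and none in WT was found at 2 of the 10 genes, Il6 and Il12b, against 3.63% of all genes, and the reverse at none, against 8.54%. With −log10 q of 5 or more, 10 of 10 genes were marked in the knockout, against 66.5%, and 4 of 10 in WT, against 54.5%. The 4 were Il18, Tnf, Ptgs2 and Acod1. Il1b passed in the knockout only through a 214 bp peak 3525 bp beyond its far end, with −log10 q of 5.01. Il12a in WT was just under 5. The q scale differed between the lists, with 29055 of 52977 knockout peaks and 16876 of 73321 WT peaks passing. Within 2 kb of the listed starts, H3K4me3 peaks covered more bases in the knockout at all 6 genes covered in both lists, which was so for 97.6% of all such genes. The medians of these 6 were 1057.5 bp in WT and 1793 bp in the knockout, and those of all genes 944 and 1577 bp.

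The widening was unequal among the 6. Coverage went from 386 to 1132 bp at Il18, from 693 to 1606 bp at Il12a and from 958 to 3338 bp at Nlrp3. It went from 1379 to 2318 bp at Tnf and from 1159 to 1980 bp at Acod1, and Ptgs2 had 1157 and 1270 bp. The windows of Il12a and Nlrp3 span 2 starts and are longer. Around the first end of Nos2 the values were 391 and 627 bp. At the 3 genes with no WT coverage, the knockout list covered 1145 bp at Il6, 389 bp at Il12b and 200 bp at Il1b. The knockout list is shorter than the WT list, 52977 against 73321 peaks, and its peaks are wider, with a median of 438 bp against 290 bp, over the genome as a whole. With rank given as a percentage of list length, the strongest H3K4me3 peak stood lower in the knockout at Il18 (top 20.6% against 18.0% in WT) and Tnf (15.6% against 14.0%). So it did at Ptgs2 (19.0% against 15.5%), Il12a (26.0% against 23.0%), Acod1 (22.4% against 11.8%) and Il1b (53.2% against 44.7%). At Nos2 the percentages were 24.9% and 25.2%, and at Nlrp3 the knockout peak stood higher, at 25.1% against 36.0%. These percentages depend on list length, which differed. By rank number the strongest peak stood higher in the knockout at Il18 (10930 against 13174), Tnf (8289 against 10284) and Ptgs2 (10069 against 11365). The same held at Il12a (13767 against 16879), Il1b (28170 against 32755), Nos2 (13202 against 18450) and Nlrp3 (13293 against 26371). At Acod1 it stood lower (11856 against 8620). Of the 27 WT peaks at the 10 genes 19 overlapped a knockout peak, against 52.0% over all gene windows, and of the 26 knockout peaks 14 overlapped a WT peak, against 50.9%. The places inside Nos2 that were called in WT at 7852, 16562 and 27506 bases from the first end had no knockout peak.

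**Figure D4:**
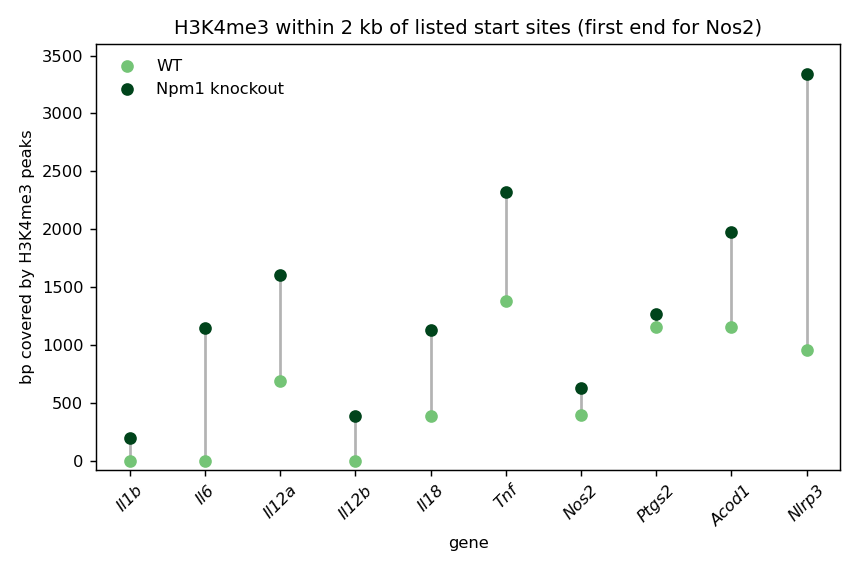
Bases covered by H3K4me3 peaks within 2 kb of the listed start sites of each gene (of the first annotated end for Nos2) in 1 WT and 1 Npm1-knockout library of cardiac macrophages after infarction. The knockout point lies above the WT point at all 10 genes, by the widest gap at Nlrp3 (958 and 3338 bp), and the WT point is at 0 for Il1b, Il6 and Il12b.

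A list of 50 further genes of the same pathways gave the setting. Of these 49 had an infarct, 48 an IL-4, 33 a sham and 17 an untreated NPM1 peak in the window, and 48 had H3K4me3 in WT and 48 in the knockout. The shares of all genes, in that order, were 74.9%, 78.3%, 52.4% and 36.2% for NPM1 and 77.1% and 72.2% for H3K4me3. Counting those peaks alone whose −log10 q was at least 5, there were 33, 37, 7 and 3 genes for NPM1 and 36 and 48 for H3K4me3. Over all genes those shares were 41.4%, 48.2%, 10.5% and 7.44% for NPM1 and 54.5% and 66.5% for H3K4me3. The part of gene length in the counts of the pathway list was not tested. Among the 16 inflammasome, interleukin-1 and interleukin-18 genes 15 had an infarct and 14 an IL-4 peak. All 9 genes of the interleukin-6 and interleukin-12 families and their receptors had both, among them Il23a, which pairs with the Il12b product to form interleukin-23, with −log10 q of 4.78 after infarction and 21.9 with IL-4. The receptor genes Il6ra, Il6st, Il12rb1 and Il12rb2 had infarct and IL-4 NPM1 peaks, where Il6, Il12a and Il12b had none in those 2 lists. The peaks at Il12rb2 were weak, with −log10 q of 0.715 after infarction (rank 72351 of 79893) and 2.62 with IL-4. All 9 genes around TNF had both, Lta and Ltb through the peak at Tnf. All 16 genes of nitric oxide, prostanoid and redox metabolism had both.

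The highest −log10 q in the pathway list after infarction belonged to Sod2, the mitochondrial superoxide dismutase, with 42.0, Tnfaip2, a gene induced by TNF, with 35.1, and Hif1a, a hypoxia-responsive transcription factor, with 30.0. With IL-4 they belonged to Tnfaip2 with 50.0, to Lta and Ltb through the Tnf peak with 41.9, and to Sod2 with 33.8. In the knockout H3K4me3 library they belonged to Sod2 with 183, Ripk1, a kinase of TNF signalling, with 178, and Il6st, the shared receptor subunit of the interleukin-6 family, with 156. For Sod2 and Ripk1 the WT values were 38.4 and 36.4, and for Il6st 16.4. Their ranks were 393, 450 and 3725 in the WT list and 506, 586 and 1240 in the knockout list. The infarct peak past Acod1 (50.4) lay above all 50 of these genes in that list and the IL-4 peaks at Acod1 (45.9) and Tnf (41.9) below Tnfaip2 alone.

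The genes whose pattern was most like each member were taken as those with the same presence or absence of a peak in all 6 lists. Il1b, Il18, Tnf and Acod1 shared 1 pattern, a peak in every list but sham and untreated, with 19.4% of all genes and with 11 genes of the pathway list, among them Casp1, Pycard and Gsdmd of the inflammasome, Il23a and Gch1. Nos2 and Nlrp3 added sham and shared their pattern with 18.5% of all genes and with Il1a, Il1rn, Tnfaip3, Arg1 and Sod2 among others. The Ptgs2 pattern, infarct NPM1 with both H3K4me3 lists, was found at 1.09% of all genes and at Il18bp. Those of Il12a (1.37%), Il6 (0.809%) and Il12b (0.133%) were found at no gene of the pathway list.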

How the data were processed

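CUT&Tag peak lists of 6 libraries, 4 for NPM1 and 2 for H3K4me3, were analysed, and the 4 other libraries of the series were not analysed here. Per the labels, a commercial transposase kit was used. Per the submitters' processing notes, reads were processed with bcl2fastq 2.17, Bowtie2, MACS2 2.2.7.1 and deepTools on mm10. The sources used here do not state settings, duplicate handling, control library or spike-in. Each list was called on 1 library. Per peak the authors deposited a position, a summit, a score of 10 times the −log10 p, a fold enrichment ratio, and −log10 p and −log10 q values.

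A summit pileup and local background were solved from the fold and −log10 p, within 0.001 for 99.9% to 100% of sampled summits. The background most often found was taken as genome-wide. Genes came from the GRCm38.p6 table (1 entry per symbol) and start sites and strand from RefSeq promoters, which had 9 of the 10 genes. A listed gene had a peak where 1 bp overlapped its window. The gene table gives no exons. Genes and lists were chosen with earlier results of these data known. The 10 genes are all named, with up to 3 pathway genes per comparison by −log10 q, and genes sharing a pattern as examples. On simulated data 1965 of 1965 pileups and 400 of 400 planted genes were recovered. Python 3.11.15, numpy 2.4.6, pandas 2.3.3, scipy 1.17.1 and matplotlib 3.10.9 were used. Alternatives were other windows, stricter q, equal list lengths, summits in the window and scaled pileups.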

Additional observations from a re-analysis of the deposited data

How the results depend on the processing

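The number of the 10 genes with a peak kept within 1.5 times its value, in every list and for NPM1 with H3K4me3 together, with the extent and 1 kb, with q of 0.05 or less, with lists of equal length (52977 peaks) and with the summit in the window. With pileups scaled to the shallower background, run for infarct, IL-4 and WT H3K4me3 and for the joint count, it did so too. With 10 kb on either side, untreated cells had 2 genes with a peak instead of 0. With 1 kb around both gene ends, sham had 1 instead of 3. With −log10 q of 5 or more, sham had 0, infarct 4 instead of 7, WT H3K4me3 4 instead of 8, and infarct NPM1 with WT H3K4me3 2 instead of 7. With 1 kb around listed start sites, an alternative chosen after seeing the data and over 9 genes, sham had 0, infarct 4 and infarct NPM1 with WT H3K4me3 4. The cause was not tested. No paired analysis was possible because each group has 1 library.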
